A study of Mus musculus with 12 samples.

Results

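The genes described here are 35 genes of the ATF4 program and of protein charging, among 55604 genes listed in each library of this bulk RNA-seq study of mouse macrophages. They were chosen by name and by known role, with earlier results of these data known, and the rule sets no limit on any measured value. They fall into 9 stress factors (Atf4, Atf3, Atf5, Ddit3, Trib3, Chac1, Sesn2, Ppp1r15a and Eif4ebp1), 10 enzymes of serine, one-carbon and amino acid metabolism (Asns, Phgdh, Psat1, Psph, Shmt2, Mthfd2, Mthfd1l, Aldh1l2, Pck2 and Cth), and 16 cytosolic aminoacyl-tRNA synthetases. ATF4 is a transcription factor of the integrated stress response. Kinases that sense amino acid shortage, unfolded protein, heme loss or viral RNA phosphorylate the initiation factor eIF2, which lowers general translation while ATF4 mRNA is translated more. The level of Atf4 mRNA therefore reports only part of ATF4 activity. ATF4 protein binds composite sites in genes for amino acid synthesis, amino acid import, stress signalling and many cytosolic synthetases, the enzymes that join each amino acid to its tRNA.

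The study asked how the macrophage transcriptome changes when the cells take up dead tumor cells that overexpress STC1, the glycoprotein stanniocalcin-1. Bone marrow-derived macrophages of C57BL/6 mice were cultured with 20 ng/ml of M-CSF until day 7 in all 3 groups, each with 4 libraries. The first group was macrophages alone. The second received corpses of control B16-F10 cells, a C57BL/6 melanoma line, and the third received corpses of STC1OE B16-F10 cells, in both cases at 5 corpses per macrophage for 20 hours, after which corpses that had not bound were washed away. Neither the way the tumor cells were killed nor whether the STC1OE line is 1 clone is given in the sources used here. The libraries of a group came from independent experiments according to the series' own description, but shared dishes or animals cannot be read from the labels.

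Assigned read counts ranged from 28488441 to 39981074 per library, and the fit gave a spread between libraries of 4.53% (common biological coefficient of variation). All 10 macrophage markers were above 1 CPM (assigned counts scaled to library size) in every group, and their summed level was 16501 to 17385.2 CPM in macrophages alone, 14004.3 to 15671.1 with control corpses and 13919.9 to 15013.8 with STC1OE corpses. Of 17 melanocyte markers, 14 were below 1 CPM in macrophages alone. These summed to 2.35 to 2.97 CPM there, to 14.2 to 18.7 with control corpses and to 9.27 to 11.0 with STC1OE corpses, with no overlap between groups. With STC1OE against control corpses, 6 of the 13 melanocyte markers tested were lower and 2 higher (Ednrb and Gpnmb) by edgeR, against 2.12% and 3.33% of all genes. Mitf fell by 0.59 in both comparisons with macrophages alone. All 17 summed to 15734.5 to 15808.8 CPM in macrophages alone, 20822.4 to 22944.2 with control corpses and 23148.6 to 24816.7 with STC1OE corpses, mostly from Gpnmb. Over the groups in that order, neutrophil markers summed to 15.3 to 17.3, to 3.83 to 5.13 and to 4.3 to 5.28 CPM, and B cell markers to 14.5 to 15.8, to 4.6 to 5.32 and to 4.35 to 4.74 CPM. The B cell sum is mostly Ighm (mean 12.5, 2.55 and 2.50 CPM), while Cd79a did not pass in either comparison with macrophages alone and Cd79b passed only with STC1OE corpses (−0.36, adjusted p = 0.0443 by edgeR). The part of these cells and of tumor RNA in any result below was not tested. In bulk RNA, fewer cells of a type and less RNA per cell cannot be told apart. Stc1 itself had 5 counts over the 4 libraries of macrophages alone, 5 with control corpses and 17 with STC1OE corpses.

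Promoter sequences are shown because ATF4 is known to act through a short composite site, and because genes that carry it did not all move together in these data. RefSeq promoters of build GRCm38.p6 (250 bases before to 50 after the start) were matched for 26 of the 35 genes, and the remaining 9 were Eif4ebp1, Aldh1l2, Cth, Cars, Lars, Nars, Wars, Hars and Rars. The motif TGATGNAA, searched on both strands (TTNCATCA is its reverse complement), was found for 10 of the 26 genes (38.5%), against 4.51% of all 27025 genes with a promoter of that length (3.97% of 32851 promoters). It was found for 3 of 8 stress factors (Atf3, Trib3 and Chac1), for 2 of 8 enzymes (Asns and Pck2), and for 5 of 10 synthetases (Aars, Gars, Iars, Tars and Yars). A match describes letters and is not a measured binding site. The stretches around a match before the start follow, written 5′ to 3′ on the gene's strand, with the 8 bases of the motif or its reverse complement in capitals. They are Atf3 at chr1:191183396-191183483 (minus strand, first motif base 110 bases before the start), Chac1 at chr2:119351009-119351096 (plus strand, 193 bases before), Asns at chr6:7693210-7693272 (minus strand, 23 before), Pck2 at chr14:55540123-55540210 (plus strand, 103 before), Aars at chr8:111033690-111033777 (plus strand, 112 before), Gars at chr6:55037931-55038000 (plus strand, 30 before) and Tars at chr15:11399659-11399713 (minus strand, 15 before).
Atf3: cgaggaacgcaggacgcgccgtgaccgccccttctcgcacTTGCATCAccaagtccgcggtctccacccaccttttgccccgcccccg
Chac1: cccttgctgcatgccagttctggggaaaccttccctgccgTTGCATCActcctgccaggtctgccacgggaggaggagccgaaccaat
Asns: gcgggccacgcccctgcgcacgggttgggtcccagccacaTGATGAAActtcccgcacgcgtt
Pck2: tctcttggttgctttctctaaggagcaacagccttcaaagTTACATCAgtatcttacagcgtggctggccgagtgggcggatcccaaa
Aars: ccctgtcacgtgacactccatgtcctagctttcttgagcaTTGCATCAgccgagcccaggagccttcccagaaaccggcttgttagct
Gars: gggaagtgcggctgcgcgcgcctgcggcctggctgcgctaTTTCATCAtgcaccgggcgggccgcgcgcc
Tars: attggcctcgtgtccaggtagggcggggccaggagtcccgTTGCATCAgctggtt

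Levels of the genes can be set against each other only per transcript length. In macrophages alone, Atf3 stood highest at 239 CPM per kilobase of transcript, followed by Atf4 at 57.5. Among the synthetases Nars (56.2), Sars (43.3) and Rars (42.8) had the highest level per kilobase, and Cars (9.99) and Tars (10.9) the lowest. The enzymes were lower, with Psat1 at 13.2 and Shmt2 at 12.3 CPM per kilobase at the top of the list, and Phgdh at 2.84 and Psph at 2.26 at the bottom of those tested. Trib3 and Chac1 were low, at 1.84 and 0.414 CPM per kilobase. Aldh1l2, the mitochondrial formyltetrahydrofolate dehydrogenase, had 20, 28 and 37 counts in all over the 4 libraries of the respective groups. Cth, which makes cysteine from cystathionine, had 3, 2 and 8. Both were too low to test, which left 33 of the 35 genes among 16406 genes tested. Whether Aldh1l2 or Cth differed between groups was therefore not tested.

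With control corpses, compared with macrophages alone, the stress factors were lower, the enzymes were mixed, and the synthetases were mostly slightly higher. Of 9 stress factors 8 fell by edgeR's quasi-likelihood test (adjusted p below 0.05 over all genes), with a median log2 difference of −0.24, and 0 rose (0 also at an unadjusted p below 0.05, and 0 by DESeq2). Of the 8 enzymes tested 4 fell and 3 rose (median −0.17), and of 16 synthetases 9 rose and 3 fell (median 0.09). Over all genes tested 20.5% were called lower and 19.7% higher, with a median of −0.001. All 33 genes together had 15 lower (45.5%) and 12 higher (36.4%). Many of these differences were small: 9 of the 33 fell and 2 rose by at least 1.2-fold, against 11.2% and 9.61% of all genes.

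**Figure D1:**
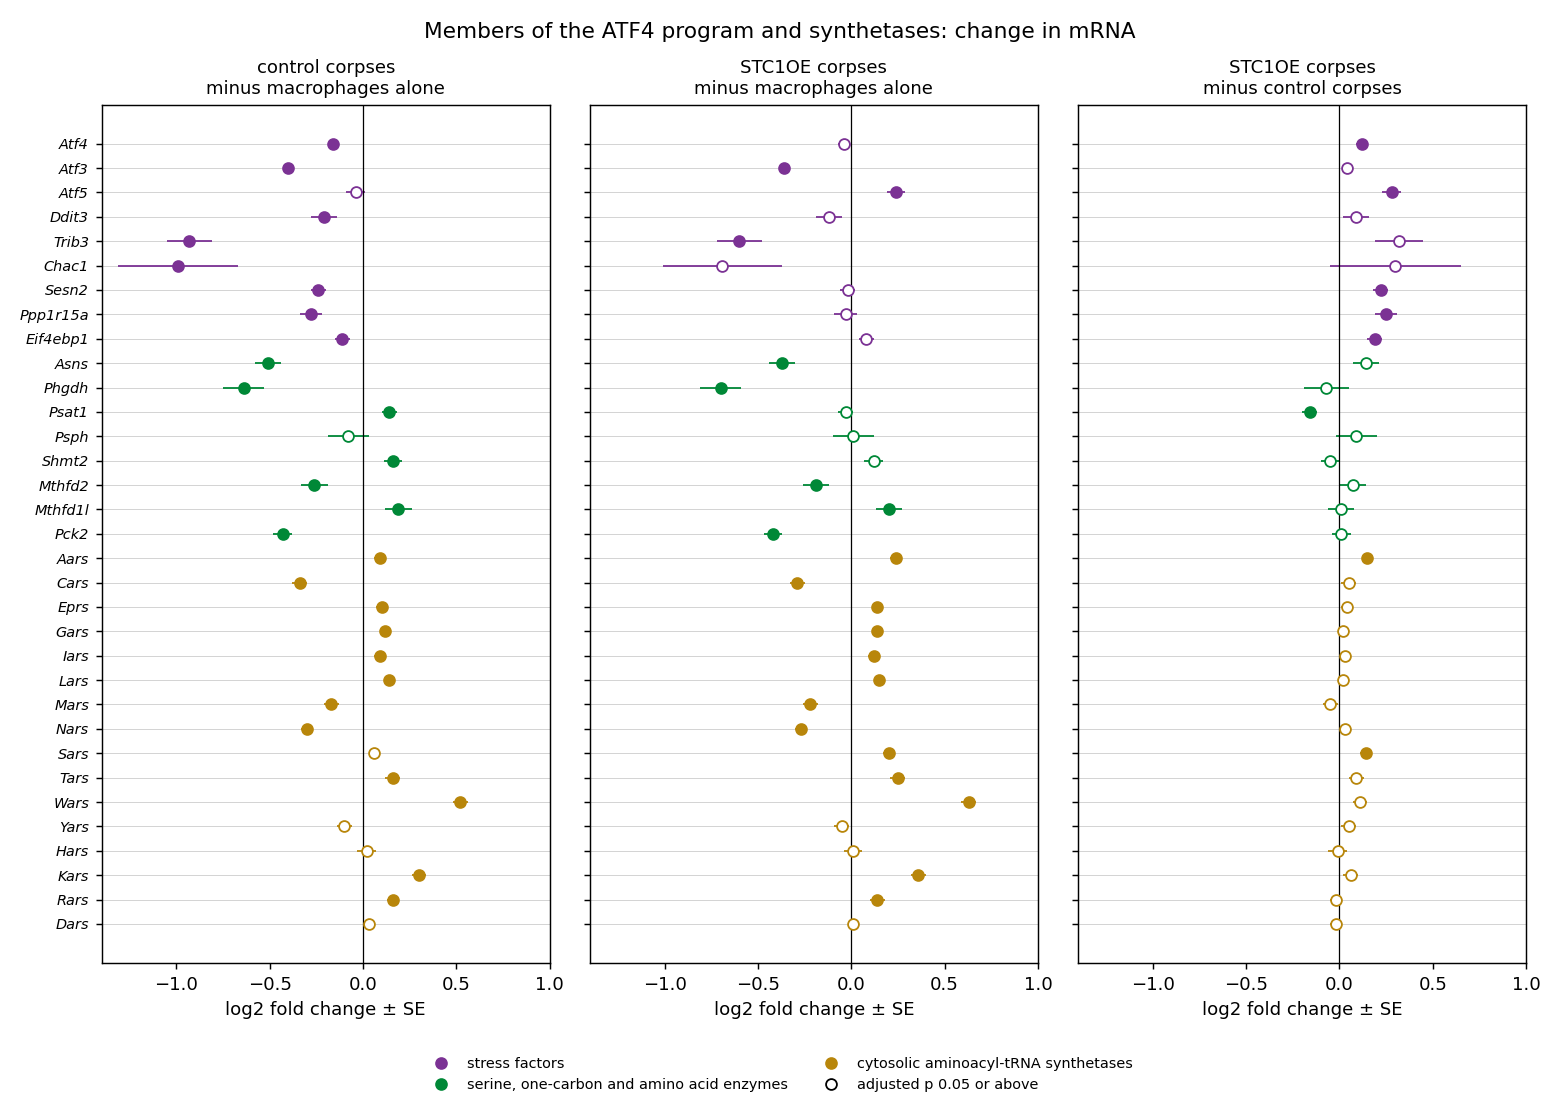
Log2 difference of each tested gene in the 3 comparisons, with the standard error as the bar, coloured as stress factors, enzymes and synthetases, with open circles where the adjusted p did not pass. Trib3 (−0.93) and Chac1 (−0.99) sit farthest to the left with control corpses and Wars (0.52) farthest to the right.

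Atf4 (chromosome 15, 80255184 to 80257541, GRCm38) was at 101.5, 100.2, 98.5 and 96.6 CPM in the 4 libraries of macrophages alone and at 91.8, 84.3, 89.1 and 90.3 with control corpses. The groups did not overlap, as was the case for 18.9% of all genes in the lower direction, and Atf4 fell by 0.16 ± 0.03 on the log2 scale (SE, adjusted p = 7.64e-05 by edgeR). Atf3, a stress-induced repressor and activator of the same protein family, was at 477.8, 476.2, 473.9 and 468.5 CPM alone and at 361.3, 359.4, 357.4 and 359.5 with control corpses. Its 8 libraries formed tight groups far apart, a fall of 0.40 ± 0.02 (adjusted p = 1.23e-15 by edgeR). Atf5, a relative of ATF4 that is also controlled in translation, did not pass the test (−0.04 ± 0.05, adjusted p = 0.595 by edgeR), with 23.5 to 28.1 CPM around the 25.8 to 27.4 of macrophages alone.

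Among the stress factors, Trib3 and Chac1, both downstream of ATF4, had the largest folds. Trib3 (chromosome 2, 152337422 to 152344032), a pseudokinase that feeds back on ATF4, was at 3.28, 3.84, 3.68 and 4.13 CPM alone and at 2.01, 2.08, 1.68 and 2.10 with control corpses. Every corpse library lay below every library of macrophages alone, and Trib3 fell by 0.93 ± 0.12 (adjusted p = 2.47e-07 by edgeR). Chac1, which degrades glutathione, was at 0.656, 0.51, 0.556 and 0.989 CPM alone and at 0.348, 0.0916, 0.448 and 0.474 with control corpses. It fell by 0.99 ± 0.32 (adjusted p = 0.0139 by edgeR) on 88 and 49 counts per group. That call was lost without control library 2 or without library 4 of macrophages alone (adjusted p up to 0.103 by edgeR). Ddit3, which encodes CHOP, a factor tied to death under prolonged stress, was at 15.3, 16.2, 13.8 and 13.8 CPM alone and at 12.8, 13.3, 12.2 and 12.9 with control corpses. The groups came close but did not overlap, and the fall of 0.21 ± 0.07 (adjusted p = 0.0139 by edgeR) was lost without control library 3 or without library 1 or 2 of macrophages alone. Ddit3 overlaps Mars in the genome, so their reads can be confused where strand was not used in counting.

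Sesn2, which restrains mTORC1 when leucine is short, fell by 0.24 ± 0.04 from 26.3 ± 1.37 to 22.3 ± 0.767 CPM (SD, n = 4, adjusted p = 5.48e-05 by edgeR). Ppp1r15a, the eIF2 phosphatase subunit GADD34, fell by 0.28 ± 0.06 from 18.3 ± 0.586 to 15.0 ± 0.653 CPM (adjusted p = 0.000151 by edgeR). Both had no overlap between groups. Eif4ebp1, a repressor of cap-dependent translation, fell by 0.11 ± 0.04 (adjusted p = 0.0181 by edgeR) with overlapping groups, and it lost the call without any 1 of control libraries 2 and 3 and library 4 of macrophages alone.

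**Figure D2:**
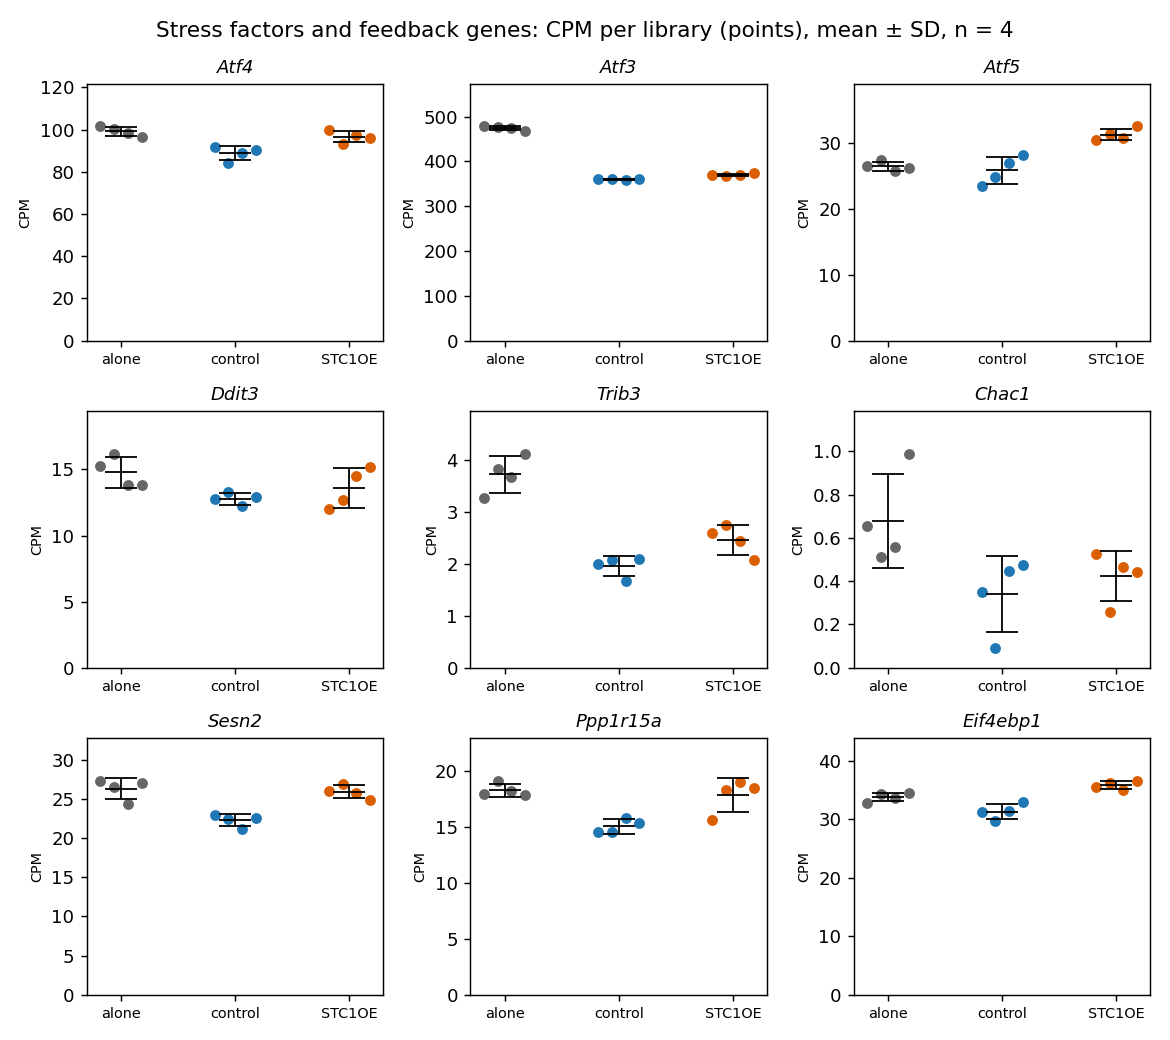
Level of each stress factor in CPM in the 4 libraries of each group (points), with mean and SD (n = 4); axes differ between genes. Atf3 and Trib3 separate both corpse groups from macrophages alone, while Atf4, Sesn2 and Ppp1r15a are lowest with control corpses.

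Among the enzymes, Asns, Phgdh, Mthfd2 and Pck2 fell with control corpses, and Psat1, Shmt2 and Mthfd1l rose. Asns (chromosome 6, 7675169 to 7693254), which makes asparagine, was at 14.1, 13.8, 14.2 and 15.2 CPM alone and at 9.53, 10.6, 9.95 and 10.3 with control corpses, a fall of 0.51 ± 0.07 (adjusted p = 4.28e-07 by edgeR). Phgdh, the first enzyme of serine synthesis, was at 5.46, 5.65, 5.0 and 5.37 CPM alone and at 3.61, 3.09, 4.31 and 2.75 with control corpses, a fall of 0.64 ± 0.11 (adjusted p = 2.53e-05 by edgeR). Pck2, the mitochondrial enzyme that makes phosphoenolpyruvate, was at 23.9, 23.5, 25.2 and 25.9 CPM alone and at 18.8, 19.6, 17.2 and 17.9 with control corpses, a fall of 0.43 ± 0.05 (adjusted p = 4.78e-08 by edgeR). In these 3 genes no corpse library reached any library of macrophages alone. Mthfd2, of the mitochondrial one-carbon pathway, fell by 0.26 ± 0.07 from 18.8 ± 0.984 to 15.7 ± 1.5 CPM (SD, n = 4, adjusted p = 0.00321 by edgeR), with no overlap.

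The steps of serine synthesis did not move as a block. Psat1, the second enzyme, was at 34.5, 32.7, 34.7 and 35.9 CPM alone and at 40.2, 35.6, 38.7 and 36.7 with control corpses, and rose by 0.14 ± 0.04 (adjusted p = 0.0122 by edgeR). Psph, the third, did not pass (−0.08 ± 0.11, adjusted p = 0.602 by edgeR). Shmt2, which splits serine into glycine and a one-carbon unit in mitochondria, rose by 0.16 ± 0.05 (adjusted p = 0.00755 by edgeR), and Mthfd1l, which releases formate, by 0.19 ± 0.07 (adjusted p = 0.0294 by edgeR). The groups overlapped for Psat1, Shmt2 and Mthfd1l. Psat1 lost its call without control library 1 or library 2 of macrophages alone, Shmt2 without library 3 of macrophages alone, and Mthfd1l without any 1 of control libraries 1, 3 and 4 and libraries 3 and 4 of macrophages alone.

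**Figure D3:**
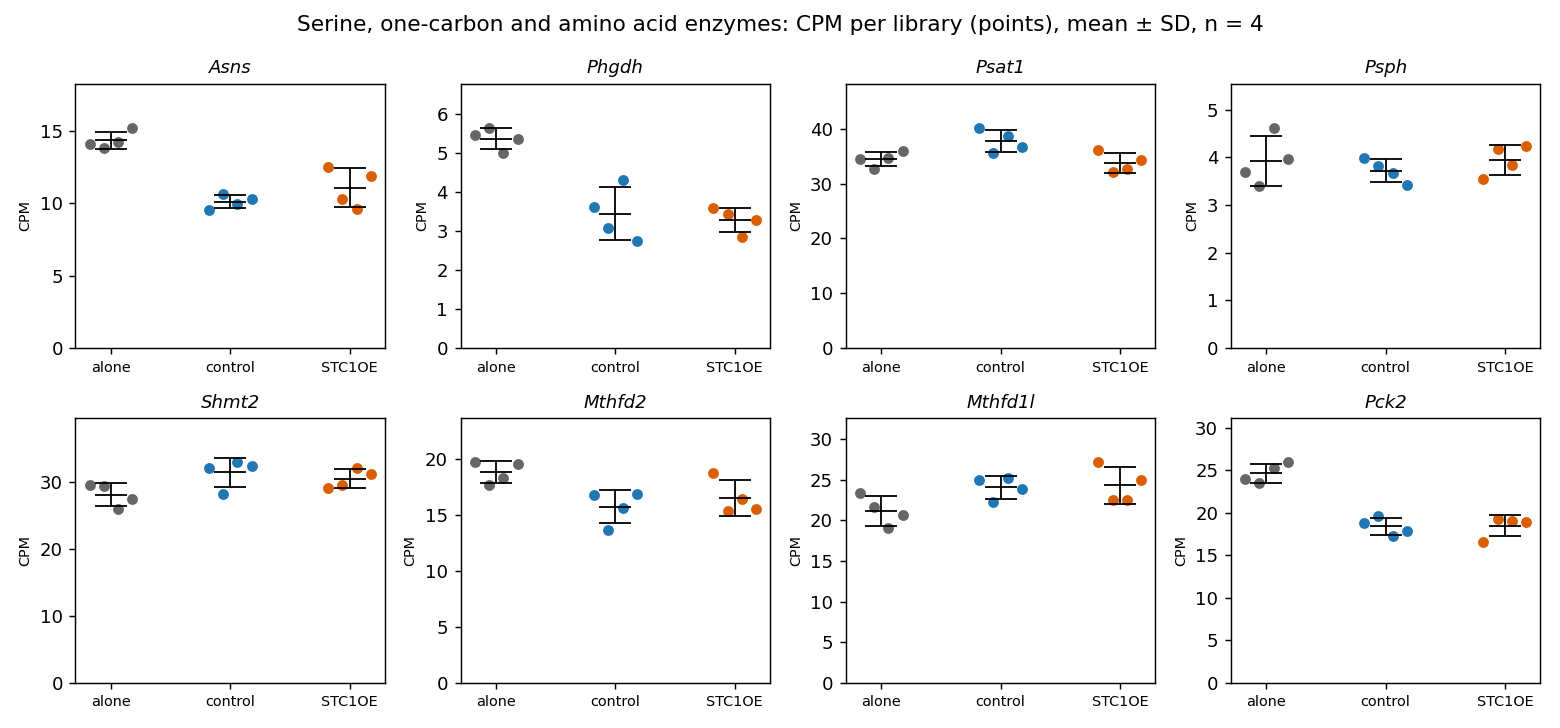
Level of the enzymes in CPM in the 4 libraries of each group (points), with mean and SD (n = 4); axes differ between genes. Asns, Phgdh and Pck2 are lower in both corpse groups than in any library of macrophages alone, and Psat1 is highest with control corpses.

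Of the synthetases, Wars rose most and Cars fell most with control corpses. Wars (chromosome 12, 108860030 to 108894174), the tryptophanyl enzyme and a known interferon-induced gene, was at 35.3, 35.2, 35.2 and 38.7 CPM alone and at 51.7, 49.9, 55.0 and 50.2 with control corpses. All 4 corpse libraries lay above all of macrophages alone, a rise of 0.52 ± 0.04 (adjusted p = 2.78e-12 by edgeR). Kars, the lysyl enzyme, was at 60.1, 60.8, 60.5 and 57.2 CPM alone and at 75.6, 68.3, 74.8 and 73.7 with control corpses, a rise of 0.30 ± 0.04 (adjusted p = 6.31e-07 by edgeR). The other 7 that rose, Aars, Eprs, Gars, Iars, Lars, Tars and Rars, did so by 0.09 to 0.16, each by less than 1.2-fold. Of the 9, all but Iars had no overlap between groups, as was the case for 18.3% of all genes in this direction. Iars lost its call without any 1 of control libraries 1 and 4 and libraries 2 and 3 of macrophages alone. In libraries 1 and 2 of each group alone, 3 synthetases rose with control corpses (Wars, Kars and Lars). Aars, Eprs, Gars, Iars, Tars and Rars did not pass there. In libraries 3 and 4 alone the count was 10. The share of all genes that rose in libraries 3 and 4 is not given here for this comparison. The difference between these counts is therefore not read as a result about synthetases.

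Cars (chromosome 7, 143557230 to 143600090), the cysteinyl enzyme, was at 31.8, 31.7, 32.4 and 32.8 CPM alone and at 26.2, 24.9, 26.2 and 24.6 with control corpses. It fell by 0.34 ± 0.04 (adjusted p = 1.89e-08 by edgeR), again with no overlap. Nars, the asparaginyl enzyme, was at 159.1, 154.3, 153.9 and 149.8 CPM alone and at 131.0, 127.7, 116.3 and 127.1 with control corpses, a fall of 0.30 ± 0.03 (adjusted p = 1.42e-08 by edgeR). The mRNAs for making asparagine (Asns) and for charging it (Nars) thus both fell. Mars, the methionyl enzyme, fell by 0.17 ± 0.04 from 34.8 ± 2.27 to 30.9 ± 1.53 CPM (SD, n = 4, adjusted p = 0.00234 by edgeR), with overlapping groups. Sars, Yars, Hars and Dars did not pass the test, at 0.06, −0.10, 0.02 and 0.03 with an SE of 0.03, 0.04, 0.05 and 0.03.

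**Figure D4:**
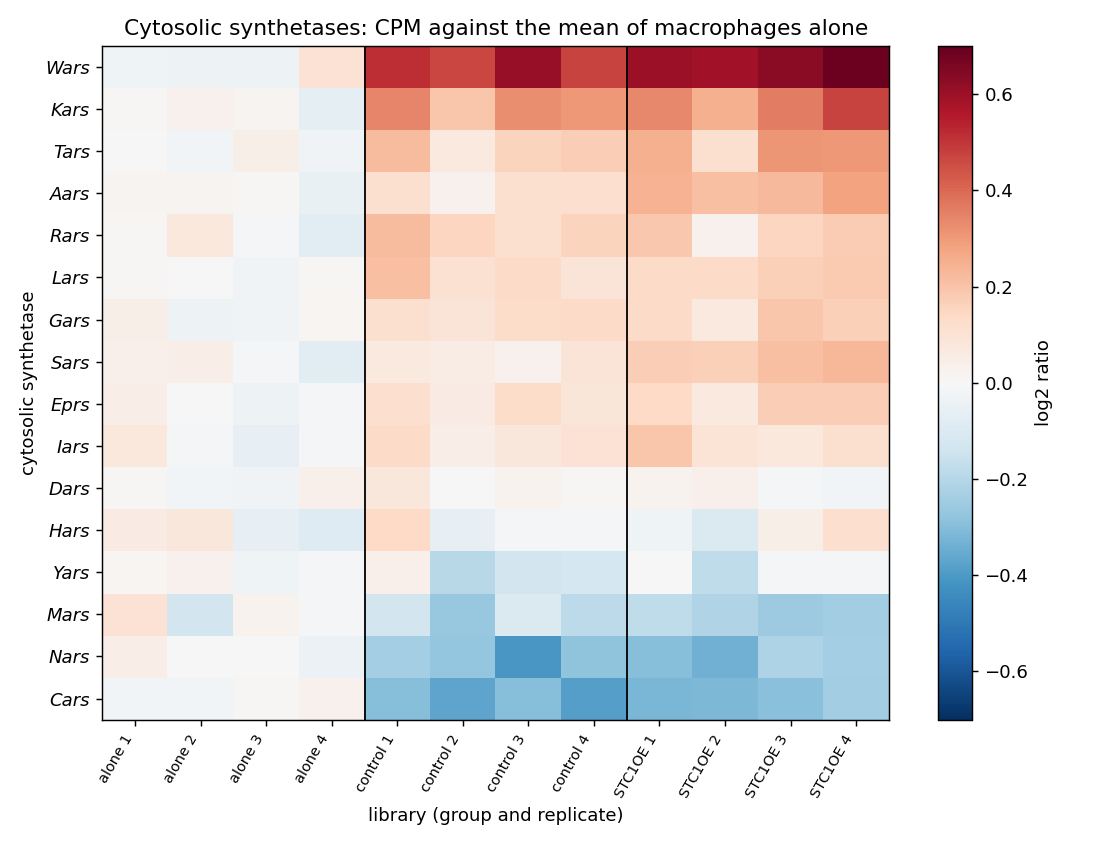
Heat map of the 16 synthetases (rows) in the 12 libraries (columns), coloured by the log2 ratio of the CPM to the mean of macrophages alone, red for higher and blue for lower. Wars and Kars are higher, and Cars and Nars lower, in all 8 corpse libraries than in any library of macrophages alone; Aars and Sars are highest with STC1OE corpses.

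With STC1OE corpses, compared with the same macrophages alone, the synthetases and enzymes were again split, while fewer of the stress factors were below macrophages alone. Of 9 stress factors 2 fell and 1 rose (median −0.04), of 8 enzymes 4 fell and 1 rose (median −0.11), and of 16 synthetases 10 rose and 3 fell (median 0.14). Over all genes tested 22.4% were called lower and 21.4% higher by edgeR (median −0.027). Together 9 of the 33 genes were lower (27.3%) and 12 higher (36.4%). By at least 1.2-fold 7 of the 33 fell and 2 rose, against 13.9% and 10.5% of all genes. Both comparisons share the libraries of macrophages alone and are therefore not independent.

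Atf3 was at 369.4, 366.1, 370.3 and 373.2 CPM with STC1OE corpses and fell by 0.36 ± 0.02 (adjusted p = 1.32e-14 by edgeR), below all libraries of macrophages alone. Trib3 was at 2.59, 2.76, 2.45 and 2.07 CPM and fell by 0.60 ± 0.12 (adjusted p = 0.000128 by edgeR), also with no overlap. These were the only stress factors that fell in this comparison. Atf5 was at 30.5, 31.4, 30.7 and 32.5 CPM, above all libraries of macrophages alone, and rose by 0.24 ± 0.05 (adjusted p = 7.5e-05 by edgeR). Atf4 was at 99.6, 93.2, 97.5 and 96.1 CPM, within reach of macrophages alone (−0.04 ± 0.03, adjusted p = 0.334 by edgeR). Sesn2 (−0.02 ± 0.04), Ppp1r15a (−0.03 ± 0.06), Ddit3 (−0.12 ± 0.07), Chac1 (−0.69 ± 0.32) and Eif4ebp1 (0.08 ± 0.04) did not pass either, and their groups overlapped except for Eif4ebp1.

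Asns was at 12.5, 10.3, 9.57 and 11.9 CPM with STC1OE corpses and fell by 0.37 ± 0.07 (adjusted p = 4.77e-05 by edgeR). Phgdh was at 3.58, 3.44, 2.85 and 3.28 CPM and fell by 0.70 ± 0.11 (adjusted p = 6.31e-06 by edgeR), and Pck2 was at 16.6, 19.3, 19.0 and 18.9 CPM and fell by 0.42 ± 0.05 (adjusted p = 7.28e-08 by edgeR). None of these 3 overlapped with macrophages alone, which held for 20.2% of all genes in the lower direction and 19.7% in the higher. Mthfd2 fell by 0.19 ± 0.07 (adjusted p = 0.0267 by edgeR) with overlap, a call lost without any 1 of 5 libraries (1 and 4 of macrophages alone, and 2, 3 and 4 with STC1OE corpses). Mthfd1l rose by 0.20 ± 0.07 (adjusted p = 0.0191 by edgeR), a call lost without library 3 or 4 of macrophages alone. Psat1 (−0.03 ± 0.04), Psph (0.01 ± 0.11) and Shmt2 (0.12 ± 0.05) did not pass.

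Wars was at 54.7, 54.2, 55.9 and 58.2 CPM with STC1OE corpses and rose by 0.63 ± 0.04 over macrophages alone (adjusted p = 2.58e-14 by edgeR). Kars was at 75.2, 71.0, 76.5 and 82.7 CPM and rose by 0.36 ± 0.04 (adjusted p = 2.22e-08 by edgeR). No library of either gene reached the range of macrophages alone. Tars rose by 0.25 ± 0.04 (adjusted p = 7.73e-06 by edgeR), Aars by 0.24 ± 0.03 (adjusted p = 2.1e-08 by edgeR) and Sars by 0.20 ± 0.03 (adjusted p = 2.8e-06 by edgeR). Eprs, Gars, Iars, Lars and Rars rose by 0.12 to 0.15. Cars fell by 0.29 ± 0.04 (adjusted p = 2.69e-07 by edgeR), Nars by 0.27 ± 0.03 (adjusted p = 6.95e-08 by edgeR) and Mars by 0.22 ± 0.04 (adjusted p = 0.00015 by edgeR), each with no overlap. Yars, Hars and Dars did not pass, at −0.05, 0.01 and 0.01. In libraries 1 and 2 of each group alone 5 synthetases rose, and in libraries 3 and 4 it was 11. Here too the share of all genes in libraries 3 and 4 is not given, and the difference is not read as a result about synthetases.

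The direct comparison of the corpse groups sets STC1OE against control corpses. Overexpression of STC1 and other differences between the tumor lines cannot be told apart in it. Stress factors were higher with STC1OE corpses: 5 of 9 rose (55.6%) and 0 fell by edgeR (0 also at an unadjusted p below 0.05, and 0 by DESeq2), against 3.33% of all genes called higher and 2.12% lower. The 5 were Atf4, Atf5, Sesn2, Ppp1r15a and Eif4ebp1, and the median over the 9 was 0.22, against −0.006 over all genes. The share of unaligned reads also differed between these groups, at 14.4% to 17.77% with STC1OE corpses and 10.81% to 11.54% with control corpses, and its part in the result was not tested. Of the enzymes 1 of 8 fell and 0 rose, and of the synthetases 2 of 16 rose and 0 fell, with 0 again at an unadjusted p and by DESeq2 in both cases. In all, 7 of the 33 genes rose (21.2%) and 1 fell (3.03%). All were small in size: Atf5 alone passed 1.2-fold, as did 0.396% of all genes in that direction and 0.908% in the other, and 0 of the 33 had all STC1OE libraries below all control libraries (4.85% of all genes).

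**Figure D5:**
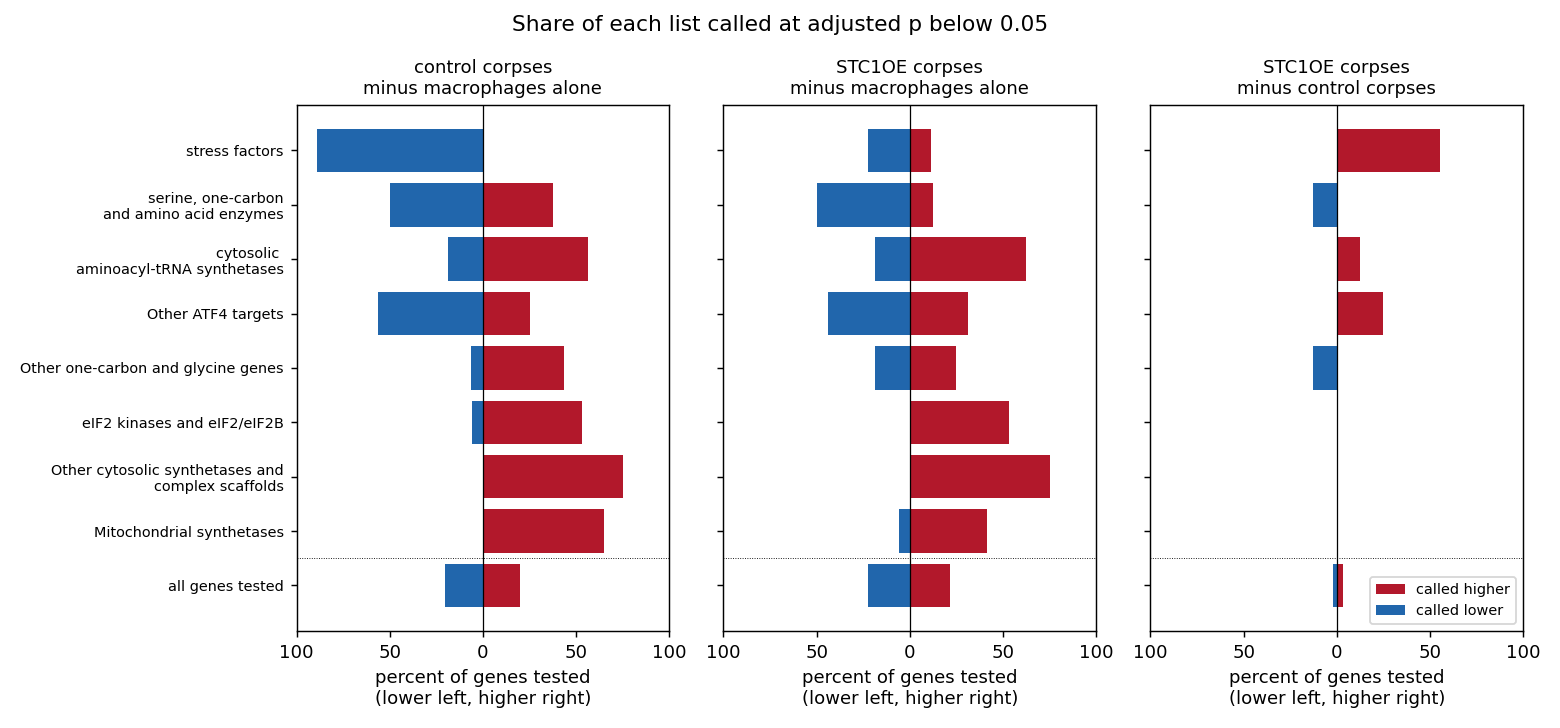
Percent of the tested genes of each list called higher (right) or lower (left) in each comparison, for the stress factors, enzymes and synthetases and the related lists described further on, beside the percent over all 16406 genes tested. With STC1OE against control corpses, 55.6% of the stress factors are called higher, and 3.33% of all genes.

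Atf5 was at 23.5, 24.8, 26.9 and 28.1 CPM with control corpses and at 30.5, 31.4, 30.7 and 32.5 with STC1OE corpses, a rise of 0.28 ± 0.05 (adjusted p = 0.00037 by edgeR). The lowest STC1OE library was above the highest control library. Atf5 overlaps other protein-coding genes on the opposite strand, so reads can be confused where strand was not used in counting. Atf4, at 84.3 to 91.8 against 93.2 to 99.6 CPM, rose by 0.12 ± 0.03 (adjusted p = 0.0155 by edgeR). Sesn2 was at 22.9, 22.4, 21.2 and 22.6 CPM with control corpses and at 26.0, 26.9, 25.8 and 24.9 with STC1OE corpses, a rise of 0.22 ± 0.04 (adjusted p = 0.00289 by edgeR). Eif4ebp1 was at 31.2, 29.8, 31.4 and 32.9 against 35.5, 36.2, 35.1 and 36.6 CPM, a rise of 0.19 ± 0.04 (adjusted p = 0.00179 by edgeR). In Atf4, Sesn2 and Eif4ebp1 the corpse groups did not overlap, which held for 5.86% of all genes in this direction. Ppp1r15a was at 14.5, 14.5, 15.8 and 15.3 against 15.6, 18.3, 19.0 and 18.5 CPM, with STC1OE library 1 inside the control range, and rose by 0.25 ± 0.06 (adjusted p = 0.0077 by edgeR). Atf3 (0.04 ± 0.02), Trib3 (0.32 ± 0.13), Chac1 (0.30 ± 0.35) and Ddit3 (0.09 ± 0.07) did not pass. The ranges of Atf3 did not overlap, although its adjusted p was 0.31 by edgeR.

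The synthetases that rose with STC1OE over control corpses were Aars and Sars. Aars, the alanyl enzyme, was at 108.7, 102.8, 109.0 and 109.2 CPM with control corpses and at 119.0, 116.6, 117.9 and 122.5 with STC1OE corpses, a rise of 0.15 ± 0.03 (adjusted p = 0.00143 by edgeR). Sars, the seryl enzyme, was at 84.7, 83.7, 82.3 and 86.0 against 90.9, 90.6, 93.6 and 94.9 CPM, a rise of 0.14 ± 0.03 (adjusted p = 0.00564 by edgeR). Neither overlapped between the corpse groups. Psat1 fell by 0.16 ± 0.04 (adjusted p = 0.024 by edgeR), from 40.2, 35.6, 38.7 and 36.7 to 36.2, 32.1, 32.7 and 34.3 CPM, with overlap. Wars (0.11 ± 0.04), Tars (0.09 ± 0.04) and the other 12 synthetases did not pass, nor did Asns (0.14 ± 0.07), Phgdh (−0.07 ± 0.12) or Pck2 (0.01 ± 0.05).

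Libraries differed within groups in a way the labels do not describe. The chi-square per degree of freedom between libraries 1 and 2, or 3 and 4, was 2.88 to 3.12 in macrophages alone, 2.73 to 7.03 with control corpses and 2.81 to 4.26 with STC1OE corpses, against 6.0 to 13.5, 5.46 to 9.11 and 11.2 to 17.1 across these pairs. The labels do not say whether libraries 1 and 2, or 3 and 4, are repeats of 1 culture. If they are, each group holds 2 independent samples and the p-values given here are too small. The corpse groups were therefore also compared within each pair of libraries. All 8 genes called kept their direction in both pairs. They were called in a fit that holds these same libraries, so this is not an independent check. A pass within a pair rests on libraries that may be repeats of 1 culture, and cannot show that a difference recurs between cultures. Many more of all genes rose between corpse groups in libraries 3 and 4 than in libraries 1 and 2, as given further on. In libraries 1 and 2 Atf5 rose by 0.36 (adjusted p = 0.00985 by edgeR), while the other 7 did not pass. In libraries 3 and 4 all 8 passed, with Atf5 at 0.20, Atf4 at 0.11, Sesn2 at 0.21, Ppp1r15a at 0.27, Eif4ebp1 at 0.16, Aars at 0.14, Sars at 0.17 and Psat1 at −0.17. The corresponding values in libraries 1 and 2 were 0.13 for Atf4, 0.23 for Sesn2, 0.22 for Ppp1r15a, 0.23 for Eif4ebp1, 0.16 for Aars, 0.11 for Sars and −0.15 for Psat1. With any 1 library left out, Atf5, Sesn2, Eif4ebp1, Aars and Sars kept their calls. Atf4 lost its call without control library 2 or STC1OE library 3 (adjusted p up to 0.0648 by edgeR), Ppp1r15a without STC1OE library 3 (0.0505), and Psat1 without any 1 of control libraries 1 and 3 and STC1OE libraries 2, 3 and 4 (up to 0.114).

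Genes with the motif did not share a direction. Of the 10 with TGATGNAA in the promoter, 5 fell and 4 rose with control corpses, and of the 16 without it 7 fell and 5 rose. Over all genes tested 20.5% fell and 19.7% rose. The 9 genes with no matched promoter, among them Wars, Cars and Nars, are not in these counts. Atf3, Chac1, Asns and Pck2, whose stretches are printed above, were among those that fell, and Aars, Gars and Tars among those that rose. With STC1OE over control corpses 1 of the 10 rose (Aars), and 5 of the 16 without the motif rose, against 3.33% of all genes. Nothing about ATF4 binding follows from these letters.

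Of 17 eIF2 kinases, eIF2 and eIF2B subunits and their regulators, 9 rose (52.9%) and 1 fell (5.88%) with control corpses by edgeR. Over all genes 19.7% rose and 20.5% fell. With STC1OE corpses 9 rose (52.9%) and 0 fell, against 21.4% and 22.4% of all genes. Between corpse groups 0 differed by edgeR, against 3.33% of all genes higher and 2.12% lower. At an unadjusted p below 0.05, 1 was lower with STC1OE corpses than in macrophages alone, and 2 were higher and 1 lower between corpse groups, and by DESeq2 the counts were 0 as well. The 1 that fell was Eif2ak1, the heme-sensing kinase, by 0.18 ± 0.04 with control corpses (adjusted p = 0.000482 by edgeR). It was named after its values were seen. Eif2ak2, the kinase PKR that senses double-stranded RNA, rose by 0.24 ± 0.04 with control corpses (adjusted p = 1.09e-05 by edgeR). Dele1, which relays mitochondrial stress to the heme-sensing kinase Eif2ak1, rose by 0.21 ± 0.05 with control corpses and 0.24 ± 0.05 with STC1OE corpses (adjusted p = 0.00168 and 0.000312 by edgeR). Eif2b3 and Eif2b5, subunits of the exchange factor that recharges eIF2, rose by 0.27 ± 0.06 with control corpses and by 0.23 ± 0.03 with STC1OE corpses, respectively. Impact, an inhibitor of the amino acid sensing kinase GCN2, rose by 0.22 ± 0.03 with STC1OE corpses (adjusted p = 1.83e-07 by edgeR).

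Of 19 other known ATF4 targets, 16 were tested. With control corpses 4 rose (25.0%) and 9 fell (56.2%, median −0.23), against 19.7% and 20.5% of all genes. With STC1OE corpses 5 rose (31.2%) and 7 fell (43.8%, median −0.10), against 21.4% and 22.4%. With STC1OE over control corpses 4 of 16 were higher (25.0%) and 0 lower by edgeR, against 3.33% and 2.12%. None was lower at an unadjusted p or by DESeq2 either. Slc7a11, the cystine importer, was at 33.8, 30.0, 30.8 and 33.3 CPM alone, at 17.5, 17.8, 20.1 and 17.9 with control corpses and at 22.5, 22.6, 23.4 and 21.9 with STC1OE corpses. The 3 groups did not overlap. It fell by 0.80 ± 0.05 with control corpses (adjusted p = 1.13e-14 by edgeR) and stood 0.30 ± 0.05 higher with STC1OE than with control corpses (adjusted p = 0.000376 by edgeR). Gdf15, a secreted stress cytokine, was at 43.9 to 44.8 CPM alone, at 43.7 to 47.7 with control corpses and at 52.3 to 56.2 with STC1OE corpses, a rise of 0.23 ± 0.04 over control corpses (adjusted p = 9.77e-05 by edgeR). Slc3a2, the heavy chain that Slc7a11 and Slc7a5 share, rose by 0.09 ± 0.02 in that comparison (adjusted p = 0.0263 by edgeR). The fourth was Ddit4, an mTORC1 inhibitor, at 1.28 to 1.72 against 1.94 to 2.72 CPM (0.63 ± 0.15, adjusted p = 0.0115 by edgeR), which lay under the level set for naming and was chosen after its values were seen.

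Slc7a5 and Slc7a11 moved in opposite directions with both kinds of corpse. Slc7a5, the leucine importer, was at 11.2, 12.4, 11.9 and 12.8 CPM alone, at 22.6, 18.5, 21.9 and 21.9 with control corpses and at 22.4, 19.8, 20.5 and 23.2 with STC1OE corpses. It rose by 0.81 ± 0.06 and 0.83 ± 0.06 over macrophages alone (adjusted p = 2.03e-11 and 1.31e-11 by edgeR). Fam129a, which encodes the stress protein Niban, fell by 0.73 ± 0.03 and 0.79 ± 0.03 (adjusted p = 2.66e-19 and 4.09e-20 by edgeR). Jdp2, a repressor of the AP-1 family, rose by 0.60 ± 0.07 with STC1OE corpses (adjusted p = 2.44e-08 by edgeR).

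The rest of the charging machinery rose in part. Of 8 other cytosolic synthetases and scaffold proteins, 6 rose with control corpses (75.0%, median 0.21) and 6 with STC1OE corpses (75.0%, median 0.25). Over all genes 19.7% and 21.4% rose, and 20.5% and 22.4% fell. In either case 0 of the 8 fell by edgeR, at an unadjusted p below 0.05 or by DESeq2. Eef1e1, a scaffold of the multi-synthetase complex, was at 19.1 to 21.1 CPM alone, at 25.7 to 27.4 with control corpses and at 23.4 to 28.3 with STC1OE corpses, a rise of 0.41 ± 0.05 and 0.33 ± 0.05 (adjusted p = 4.62e-08 and 2.18e-06 by edgeR). Farsb, a subunit of the phenylalanyl enzyme, rose by 0.27 ± 0.03 with control corpses (adjusted p = 3.76e-08 by edgeR). Of 17 mitochondrial synthetases, which charge tRNA inside the organelle, 11 rose (64.7%) and 0 fell with control corpses by edgeR (median 0.19). In that comparison 1 fell at an unadjusted p below 0.05 and 0 by DESeq2. With STC1OE corpses 7 rose (41.2%) and 1 fell (5.88%, median 0.14). Nars2 rose by 0.38 ± 0.09 and 0.37 ± 0.09 (adjusted p = 0.000502 and 0.000832 by edgeR), opposite to the cytosolic Nars. Lars2 was at 288.6, 253.8, 348.8 and 283.9 CPM alone and at 328.9, 368.3, 808.7 and 860.0 with control corpses, so that its rise of 1.01 ± 0.35 (adjusted p = 0.0443 by edgeR) came from control libraries 3 and 4. Of these 25 genes 0 differed between corpse groups by edgeR, as against 5.44% of all genes. Of the mitochondrial synthetases 1 was lower at an unadjusted p below 0.05 and 1 by DESeq2.

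Of 16 other one-carbon and glycine genes, 7 rose (43.8%) and 1 fell (6.25%) with control corpses (median 0.15), against 19.7% and 20.5% of all genes. With STC1OE corpses 4 rose (25.0%) and 3 fell (18.8%, median 0.03), near the 21.4% and 22.4% of all genes. Aldh1l1, the cytosolic counterpart of Aldh1l2, fell by 0.86 ± 0.08 and 0.87 ± 0.08 (adjusted p = 1.74e-10 and 1.78e-10 by edgeR). Mthfs, which returns stored folate to use, rose by 0.63 ± 0.07 and 0.44 ± 0.07 (adjusted p = 1.46e-08 and 7.45e-06 by edgeR). Sfxn1, the mitochondrial serine carrier, rose by 0.34 ± 0.04 and 0.37 ± 0.04 (adjusted p = 3.8e-09 and 7.43e-10 by edgeR). With STC1OE against control corpses 0 of the 16 rose by edgeR, at an unadjusted p or by DESeq2, while 3.33% of all genes rose by edgeR. Tyms, which makes thymidylate in dividing cells, fell by 0.30 ± 0.08 (adjusted p = 0.0186 by edgeR). In the same comparison 5 of 10 proliferation markers were lower by edgeR, against 2.12% of all genes. All 10 summed to 799.2 to 884.8 against 848.8 to 959.3 CPM. The largest part of these sums was Pcna (mean 483.5 against 500.2 CPM), which did not pass (adjusted p = 0.387 by edgeR). The part of proliferation in the fall of Tyms and Psat1 was not tested.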

How the data were processed

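RNA-seq read counts per gene were deposited by the authors for 12 libraries, not normalized; HISAT2, HTSeq, DESeq2 and mm10/GRCm38 are named per the submitters' processing notes. Tool versions, the annotation release and the strand setting are not given in the sources used here. Symbols came from the GENCODE M21 annotation by gene ID, which matched 54723 of 55604 IDs and all 35 members. Lines naming no gene (41.02% to 46.63% of all counts) were left out. The members and all lists were chosen with earlier results of these data known.

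Genes passing a count filter (filterByExpr, minimum 10 counts) were fitted with edgeR 4.0.16 in R 4.3.3: TMM scaling, 1 model over all 3 groups, robust quasi-likelihood test, two-sided, Benjamini-Hochberg adjustment over 16406 genes, threshold 0.05. CPM values use TMM-scaled library sizes. The method was tested on simulated data. Replicates differed by more than sampling noise, and p-values measure the spread between these libraries, which may in part be technical. Alternatives were DESeq2 1.42.0, RLE and upper quartile scaling, no filter, 2 groups only, a replicate block, library pairs and each library left out. All members could be named, and of each related list up to 3 called genes per comparison with the largest change and a mean of at least 2 CPM. Of the members, 10 of 35 overlap another protein-coding gene, where counts may be uncertain. They are Atf5, Ddit3, Ppp1r15a, Shmt2, Aldh1l2, Aars, Mars, Wars, Yars and Hars. The neighbour lies on the same strand for Aars and on the opposite strand for the rest. No sequence from chromosome 18 was printed. A single gene of the related lists that the naming rule admits is left unnamed and its values are not reported here.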

Additional observations from a re-analysis of the deposited data

Results flagged for a closer look

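In 7 of 99 groups of 4 libraries, 1 library stood far from the other 3 (Dixon's test at the 95% level), and chance gives about 1 in 20. Shmt2 was lowest in control library 2 at 28.3 CPM, with the others from 32.2 to 33.0. Pck2 was lowest in STC1OE library 1 at 16.6 CPM, with the others from 18.9 to 19.3. Aars was lowest in library 4 of macrophages alone at 97.3 CPM (others 101.4 to 102.2) and in control library 2 at 102.8 CPM (others 108.7 to 109.2). Lars was lowest in library 3 of macrophages alone at 61.3 CPM (others 62.5 to 62.7). Wars was highest in library 4 of macrophages alone at 38.7 CPM (others 35.2 to 35.3), still below all corpse libraries. Yars was lowest in STC1OE library 2 at 36.3 CPM (others 40.7 to 40.9).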

How the results depend on the processing

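No member called changed direction under any alternative run, but all runs use the same libraries and are not independent checks. DESeq2, upper quartile scaling and a term for libraries 1 and 2 against 3 and 4 left all 99 results of the members on the same side of the threshold. With RLE scaling, or with only the 2 groups compared, 2 stress factors and 2 enzymes rose with STC1OE corpses over macrophages alone, and without the count filter 2 enzymes did. Depth limits Chac1, Trib3, Psph and Phgdh most among the genes tested.

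In libraries 1 and 2 alone, with 2 libraries a group, 12.1% of genes tested rose and 12.7% fell with control corpses, 13.7% rose and 14.5% fell with STC1OE corpses, and 0.164% rose and 0.0363% fell between corpse groups (27 and 6 genes). Of the synthetases 3, 5 and 0 rose in those comparisons. Between corpse groups 1 stress factor rose and 0 enzymes fell, and 0 enzymes rose in either comparison with macrophages alone. In libraries 3 and 4 alone, 7.83% of genes rose and 3.78% fell between corpse groups (1298 and 627 genes), and 4 synthetases rose between them. Over macrophages alone, 5 stress factors fell with control corpses and 2 enzymes rose with STC1OE corpses. The shares of all genes over macrophages alone in libraries 3 and 4 are not given here.

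With any 1 library left out, between corpse groups 1.68% to 4.35% of genes rose and 0.874% to 2.83% fell, 3 to 5 stress factors rose and 0 to 1 enzyme fell. The percent that rose was 1.96 without control library 3, 1.68 without STC1OE library 3 and 2.04 without STC1OE library 4. The percent that fell was 1.11 without control library 1, 1.22 without control library 3, 1.15 without STC1OE library 3 and 0.874 without STC1OE library 4. Over macrophages alone, 1 to 3 enzymes rose with control corpses, and 0 to 2 enzymes and 1 to 2 stress factors with STC1OE corpses. The cause was not tested.

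The replicate block was fitted although no label says that the numbers pair the libraries. Same-numbered libraries correlated from −0.415 to 0.412. Against macrophages alone, 0 of 4 control libraries and 0 of 4 STC1OE libraries correlated best with their own number. Against control libraries, 2 of 4 STC1OE libraries did. With the block, 677 genes rose and 412 fell between corpse groups, and 98 of 99 results of the members kept their side of the threshold. Yars with control corpses passed it, at −0.10.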
